A study of Saccharomyces cerevisiae with 14 samples.

Results

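The 38 genes described here encode the proteasome of Saccharomyces cerevisiae, its assembly and accessory factors, and RPN4, the transcription factor of the proteasome genes. They were taken from the deposited expression table by gene symbol, and all 38 were found among its 5886 genes. They comprised 7 genes of the alpha ring (SCL1, PRE8, PRE9, PRE6, PUP2, PRE5, PRE10), 7 of the beta ring (PRE3, PUP1, PUP3, PRE1, PRE2, PRE7, PRE4), 10 of the base (RPT1 to RPT6, RPN1, RPN2, RPN10, RPN13) and 9 of the lid (RPN3, RPN5 to RPN9, RPN11, RPN12, SEM1). UMP1, RPN14, ECM29, BLM10 and RPN4 completed the set, and the alpha ring, beta ring, base and lid together are called the 33 subunit genes below. Strains in the BY4741 background were grown to log phase in YPD medium with 2% glucose, 2% peptone and 1% yeast extract, and their RNA was sequenced. MSB3Δ, NIT3Δ and HSP26Δ carried a deletion of the named gene, and TYS1 DAmP carried a drug-resistance cassette placed just after the essential gene TYS1, which lowers its transcript. Each mutant had 3 libraries and WT, the control, had 2, so that 14 libraries were compared. The labels mark the libraries of a group as biological replicates, and the study profiled these strains because each perturbation was linked to replicative lifespan.

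The proteasome degrades proteins that carry ubiquitin chains. Its core is a barrel of stacked alpha and beta rings that holds the proteolytic sites inside, and on the barrel sits a regulatory particle whose base unfolds the substrate and whose lid removes the ubiquitin. In yeast the subunits are made together through Rpn4, a short-lived activator that is itself a proteasome substrate and that binds an element in the promoters of the subunit genes, so that Rpn4 builds up when proteolysis lags.

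The sequence that Rpn4 is known to bind was searched first, because it is what most of these genes share in their DNA. The 9 letters GGTGGCAAA were looked for on both strands of the 300 bases before each annotated coding start in the RefSeq annotation of build R64. They stood before 27 of the 33 subunit genes, or 81.8%, and before 1.22% of all 6001 promoters of that length. The alpha ring had the element in 6 of 7 genes, the beta ring in 6 of 7, the base in 8 of 10 and the lid in 7 of 9. Of the assembly and accessory genes only ECM29 had it, and RPN4 did not. In all, 73 promoters held the element and 28 of them belonged to the genes described here. A shorter core of 7 letters, GTGGCAA, which lies inside the longer element, was found before 32 of the 33 subunit genes and before 4.92% of all promoters. It was added to the search after the first result was seen. RPN13, RPN14, BLM10 and RPN4 held neither form in this window. The element was already known from the promoters of subunit genes, so its high share before them was foreseen and is not a test. A match describes the letters and was not tested as a binding site.

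5 promoters are shown with 10 bases on each side of the match, each read in the direction in which the element runs forward, with the matching letters in capitals. PRE8 of the alpha ring (chrXIII:86841-86869, - strand), RPT5 of the base (chrXV:544855-544883, + strand) and RPN11 of the lid (chrVI:153259-153287, + strand) stand for their groups. PRE1 (chrV:177683-177711, + strand) and PRE5 (chrXIII:901553-901579, + strand) are the genes whose levels had the lowest and the highest correlation with RPN4. All 5 windows lie outside annotated coding sequence in R64, as did the windows of the other matches in these genes.
PRE8: agcttattaaGGTGGCAAAattgtccccg
RPT5: gccaatatgtGGTGGCAAAaatgaattaa
RPN11: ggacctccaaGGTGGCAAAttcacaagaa
PRE1: aaatctttacGGTGGCAAAaaataaagaa
PRE5: ctattatagaGTGGCAAaattaaaaat
The first 4 carry the full element and PRE5 only the core. Across the 28 genes with the full element, between 75 and 174 bases separated it from the coding start, and in 20 of the 28 it ran in the same direction as the gene. The plot of element positions shows this band before the start.

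**Figure D1:**
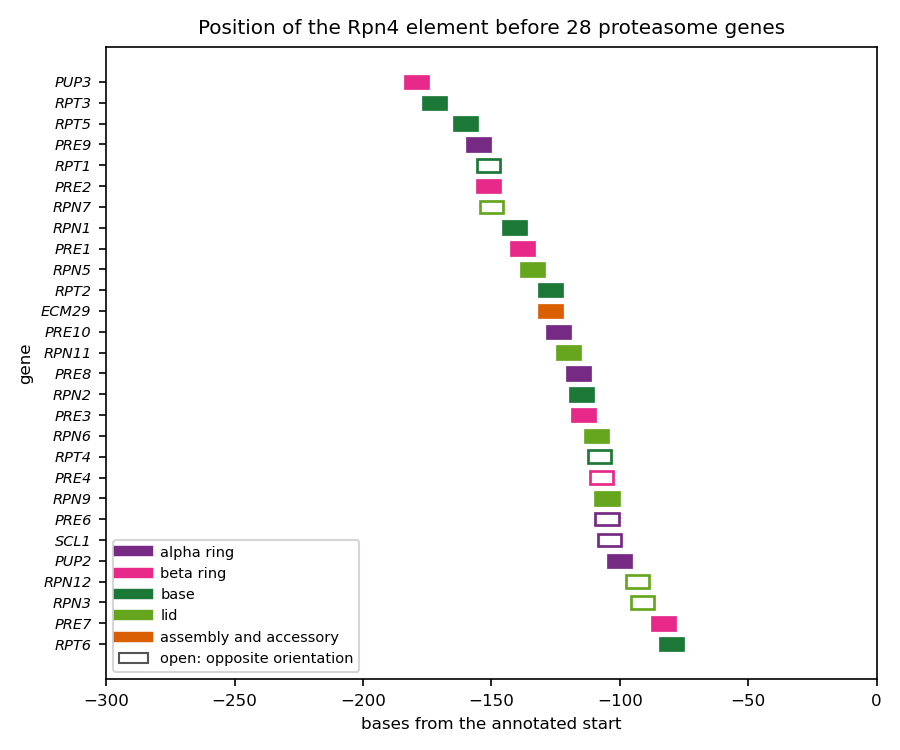
Position of the 9-letter Rpn4 element before 28 proteasome genes, in bases from the annotated coding start (x axis), 1 gene per line and coloured by group. Filled bars run in the direction of the gene (20 genes) and open bars in the opposite one, and all lie between 76 and 183 bases before the start.

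Expression was deposited as FPKM, fragments per kilobase of transcript and scaled to library size, so that levels can be compared between genes per length. All 38 genes had a mean above 10 FPKM over the 14 libraries. In WT the 33 subunit genes ranged from 72.2 FPKM for RPN1, a scaffold of the base, to 1521 FPKM for SEM1, a very small lid protein, with a median of 282 FPKM, and the median of all genes tested was 43.7 FPKM. Apart from SEM1 the subunit levels lay within 8.83-fold of each other. The WT means spanned 227 to 638 FPKM in the alpha ring, 219 to 535 in the beta ring, 72.2 to 395 in the base and 182 to 1521 in the lid. SEM1, PRE9 and UMP1 stood at the top of the order, and RPN14, BLM10 and ECM29 at its foot. Of the 37 pairs of neighbours in that order, 17 had WT libraries that overlapped, among them PRE9 and UMP1, SCL1 and PRE5, and RPN10 and PRE10. RPN4, at 129 FPKM, lay between RPT5 and RPN2 near the lower end of the subunit range.

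Before the comparisons, the libraries themselves were examined. Depth, estimated from the steps of low values in short genes, lay between about 17500000 and 21000000 fragments per library. MSB3Δ replicate 1 and NIT3Δ replicate 2 stood apart. Ribosomal protein genes took 30.1% and 18.1% of all FPKM in these libraries and between 38.6% and 48.4% in the other 12, while the 33 subunit genes took 1.04% and 1.37% there and between 0.614% and 0.824% elsewhere. FPKM is a share of a library, so that a smaller ribosomal protein share raises the values of other genes, and the median of all genes tested lay 0.41 and 0.63 on the log2 scale above WT in these 2 libraries. Each targeted gene was low in its own strain, with TYS1 between 66.2 and 82.5 FPKM in TYS1 DAmP and 512 and 563 in WT. The a-cell gene STE2, which marks the BY4741 mating type, was above STE3 of alpha cells in every library. BAR1, another a-cell gene, was below STE3 in all HSP26Δ libraries and in TYS1 DAmP replicate 1, and above it elsewhere. MET17, deleted in BY4741, was at or near 0, but HIS3, also mutated in BY4741, read between 121.6 and 230.9 FPKM. Calls, medians and correlations are given with and without MSB3Δ replicate 1 and NIT3Δ replicate 2. Log2 fold changes of single genes in MSB3Δ and NIT3Δ include these libraries unless stated.

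RPN4, the regulator, was measured at 109 and 148 FPKM in WT, 148, 130.3 and 104 in MSB3Δ, 144, 167 and 85.1 in HSP26Δ, 120.2, 188 and 133 in NIT3Δ, and 98.3, 202 and 113 in TYS1 DAmP. WT itself was spread widely, and each mutant had at least 1 library between its 2 libraries or below both. The lowest value was in HSP26Δ replicate 3 and the highest in TYS1 DAmP replicate 2. Each mutant was tested against WT with limma, on log2(FPKM + 1) and over the 5727 genes whose mean reached 1 FPKM. A gene was called where its fold change exceeded 1.5 or lay below 0.7 and its unadjusted p was under 0.05, and adjusted p values were read separately. These are the thresholds of the study. The log2 fold change of RPN4 was -0.02 ± 0.23 (SE) in MSB3Δ, 0.18 ± 0.28 in NIT3Δ, 0.04 ± 0.33 in TYS1 DAmP and -0.01 ± 0.30 in HSP26Δ. RPN4 was not called in any of them, and the sign of each of these values changed under at least 1 alternative. With 3 libraries against 2, differences of this size could not be told from the spread between libraries.

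The subunit genes were more often above WT than below it, by small amounts. Their median log2 fold change in MSB3Δ was 0.32, beside 0.18 for all genes tested, and it was 0.40 beside 0.28 in NIT3Δ, 0.20 beside 0.08 in HSP26Δ, and 0.10 beside 0.07 in TYS1 DAmP. In the same order the value was positive for 32, 33, 30 and 28 of the 33 genes, and for 75.1%, 76.6%, 59.6% and 59.9% of all genes. Without MSB3Δ replicate 1 the median in MSB3Δ was 0.19, without NIT3Δ replicate 2 that in NIT3Δ was 0.17, and without TYS1 DAmP replicate 1 that in TYS1 DAmP was 0.06. With median-ratio scaling, which sets the typical gene of every library to the same level, the 4 medians were 0.14, 0.10, 0.10 and 0.02, again in that order. All 4 comparisons used the same 2 WT libraries, so that they are not independent of each other.

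**Figure D2:**
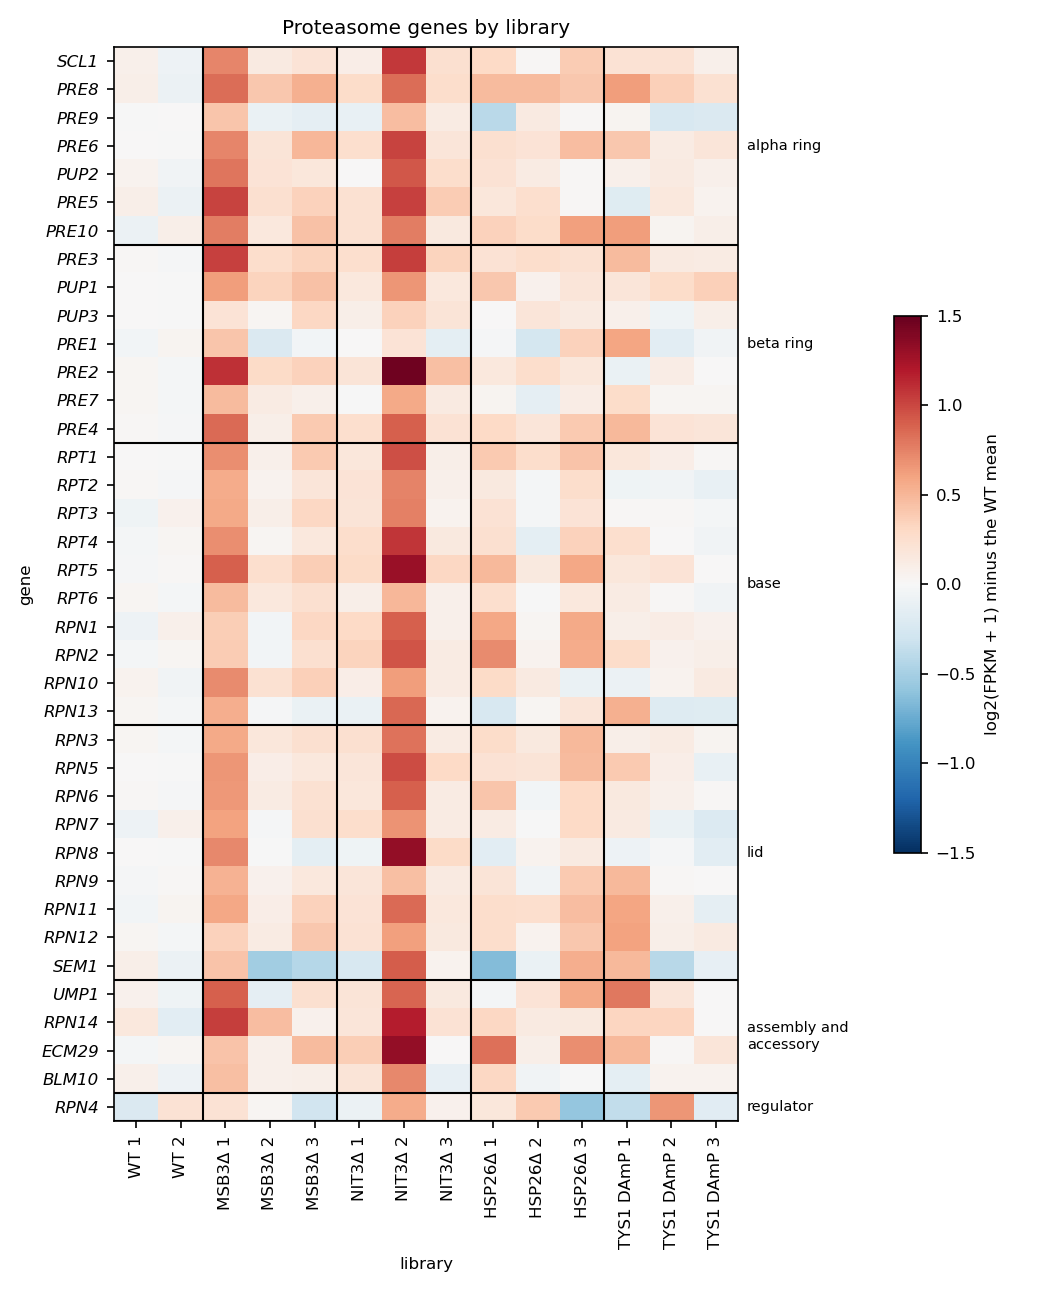
Level of each of the 38 genes (y axis, by group) in each of the 14 libraries (x axis), as log2(FPKM + 1) minus the mean of the 2 WT libraries, red above and blue below WT. MSB3Δ replicate 1 and NIT3Δ replicate 2 are the reddest columns, with subunit medians of 0.63 and 0.87, and the RPN4 row follows another course.

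A single gene of the 38 was called in a single mutant. PRE8, an alpha ring subunit (YML092C, chrXIII:85987-86739), was measured at 241 and 214 FPKM in WT, 406, 302 and 330.1 in MSB3Δ, 317, 317 and 299.5 in HSP26Δ, 275, 408 and 272 in NIT3Δ, and 350.4, 289.9 and 267 in TYS1 DAmP. All 12 mutant libraries lay above both WT libraries. Its log2 fold change was 0.60 ± 0.21 (SE) in MSB3Δ, a fold change of 1.51, and the adjusted p with limma was 0.652. In the other mutants its log2 fold change was 0.46 ± 0.27 in NIT3Δ, 0.40 ± 0.18 in TYS1 DAmP and 0.45 ± 0.15 in HSP26Δ, below the fold threshold in each. In MSB3Δ, 3.93% of all genes were called higher and 0.559% lower, against 1 and 0 of the 38. Without MSB3Δ replicate 1, without either WT library in turn or with median-ratio scaling, neither PRE8 nor any other of the 38 genes was called. PRE8 was then at 0.47 without MSB3Δ replicate 1, 0.68 without WT replicate 1, 0.51 without WT replicate 2 and 0.41 with scaling. Without MSB3Δ replicate 2, PRE8 and PRE6 were called, beside 3.91% of all genes called higher, and without MSB3Δ replicate 3 PRE8, PRE3, PRE2 and RPN14 were, beside 15.8%. Where a WT library is left out, the other is assumed to vary like the mutant libraries.

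None of the 38 genes was called in the other comparisons. In NIT3Δ 4.31% of all genes were called higher and 0.506% lower, in HSP26Δ 5.67% and 2.41%, and in TYS1 DAmP 3.34% and 1.64%. In the mean of the 4 mutants against WT, fitted over all 14 libraries, 3.34% of all genes were higher and 0.594% lower, and none of the 38 was called. PRE8 had the highest value there too, at 0.48 ± 0.19 (SE), with an adjusted p of 0.663 in limma. At an unadjusted p under 0.05 and any fold change, limma listed 2 of the 38 genes in MSB3Δ beside 6.44% of all genes, 0 in NIT3Δ beside 5.05%, 3 in HSP26Δ beside 15.6%, 0 in TYS1 DAmP beside 7.74%, and 1 in the mean of the 4 mutants beside 5.81%. No gene of the 38 had an adjusted p under 0.05 in any comparison over all libraries. With NIT3Δ replicate 1 left out, PRE2 was called in NIT3Δ at 0.96 on the log2 scale, beside 7.68% of all genes called higher. With HSP26Δ replicate 2 left out, RPN2 and ECM29 were called in HSP26Δ at 0.63 and 0.76, and with limma their adjusted p was then 0.0479 and 0.0495, where 9.67% of all genes were called higher. Without MSB3Δ replicate 1 the log2 fold change in MSB3Δ was lower for each of the 38 genes and lay between -0.47 for SEM1 and 0.47 for PRE8, with PRE1, PRE9, RPN8 and RPN13 turned from positive to negative. Without NIT3Δ replicate 2 that in NIT3Δ was also lower for each of them and lay between -0.10 for SEM1 and 0.32 for PRE2, with SEM1, PRE1, RPN13 and RPN4 turned to negative.

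In the alpha ring the other end of the scale was held by PRE9, the only core subunit whose deletion yeast tolerates. PRE9 was measured at 635 and 639.7 FPKM in WT, 849, 595 and 579 in MSB3Δ, 479.9, 698 and 648 in HSP26Δ, 589, 882 and 697 in NIT3Δ, and 658, 538 and 549 in TYS1 DAmP. WT lay in the middle, with 6 mutant libraries above and 6 below both WT libraries. The log2 fold change of PRE9 was 0.06 ± 0.24 (SE) in MSB3Δ, 0.16 ± 0.27 in NIT3Δ, -0.14 ± 0.16 in TYS1 DAmP and -0.09 ± 0.20 in HSP26Δ. PRE5, at the top of the ring in NIT3Δ with 0.55 ± 0.31, was measured at 384 and 343 FPKM in WT, 736, 428 and 462 in MSB3Δ, 409, 433 and 367 in HSP26Δ, 426, 742 and 474 in NIT3Δ, and 319, 406 and 377 in TYS1 DAmP. In NIT3Δ its libraries lay above both WT libraries, and replicate 2 was far above the other 2. The remaining genes SCL1, PRE6, PUP2 and PRE10 lay between these ends, with 10 to 12 of the 12 mutant libraries above both WT libraries in each.

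The beta ring holds the proteolytic subunits PRE3, PUP1 and PRE2, which carry the caspase-like, the trypsin-like and the chymotrypsin-like site. PRE2 was measured at 291 and 279 FPKM in WT, 608, 348 and 362 in MSB3Δ, 318, 342 and 319.9 in HSP26Δ, 325, 787 and 389 in NIT3Δ, and 266, 309 and 287 in TYS1 DAmP. It had the highest log2 fold change of the ring in MSB3Δ and in NIT3Δ, 0.57 ± 0.28 (SE) and 0.70 ± 0.40, and the lowest in TYS1 DAmP, 0.01 ± 0.15. The high values of PRE2 were those of MSB3Δ replicate 1 and NIT3Δ replicate 2, and without them its log2 fold change was 0.32 ± 0.11 in MSB3Δ and 0.32 ± 0.14 in NIT3Δ. PRE3 had all 12 mutant libraries above WT, with 433 and 424 FPKM in WT, 874, 515 and 541 in MSB3Δ, 496, 513 and 504 in HSP26Δ, 511, 879.9 and 541 in NIT3Δ, and 595, 472 and 467 in TYS1 DAmP. Its log2 fold change was 0.54 ± 0.28 in MSB3Δ, 0.54 ± 0.31 in NIT3Δ, 0.24 ± 0.17 in TYS1 DAmP and 0.23 ± 0.15 in HSP26Δ. PUP1 also had all 12 above WT, from 229 FPKM in HSP26Δ replicate 2 to 348 in NIT3Δ replicate 2, beside 220.3 and 218 in WT.

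Of the beta subunits without a proteolytic site, PRE4 was the highest of the ring in HSP26Δ and TYS1 DAmP, and PRE1 the lowest in MSB3Δ and NIT3Δ. PRE4 was measured at 329 and 319 FPKM in WT, 584, 345 and 427 in MSB3Δ, 399.9, 368 and 426 in HSP26Δ, 386, 605 and 376 in NIT3Δ, and 454, 374 and 366 in TYS1 DAmP. No mutant library of PRE4 overlapped WT, and its log2 fold change was 0.29 ± 0.15 (SE) in HSP26Δ and 0.29 ± 0.16 in TYS1 DAmP. PRE1 was measured at 519 and 551 FPKM in WT, 717, 459 and 519 in MSB3Δ, 527, 445 and 679 in HSP26Δ, 535, 617 and 483 in NIT3Δ, and 805, 480.4 and 516 in TYS1 DAmP. It overlapped WT in every mutant, with 4 mutant libraries above and 6 below both WT libraries, and its log2 fold change was 0.05 ± 0.24 in MSB3Δ and 0.02 ± 0.24 in NIT3Δ. PRE7, lowest of the ring in HSP26Δ at 0.0027 ± 0.16, was measured at 532 and 507 FPKM in WT, 725, 567 and 549 in MSB3Δ, 533, 473 and 559.7 in HSP26Δ, 519.6, 773 and 569.6 in NIT3Δ, and 629, 532 and 529 in TYS1 DAmP. PRE7 overlapped WT in every mutant but MSB3Δ. PUP3 varied least of the subunits over the 14 libraries, by 1.33-fold from lowest to highest.

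**Figure D3:**
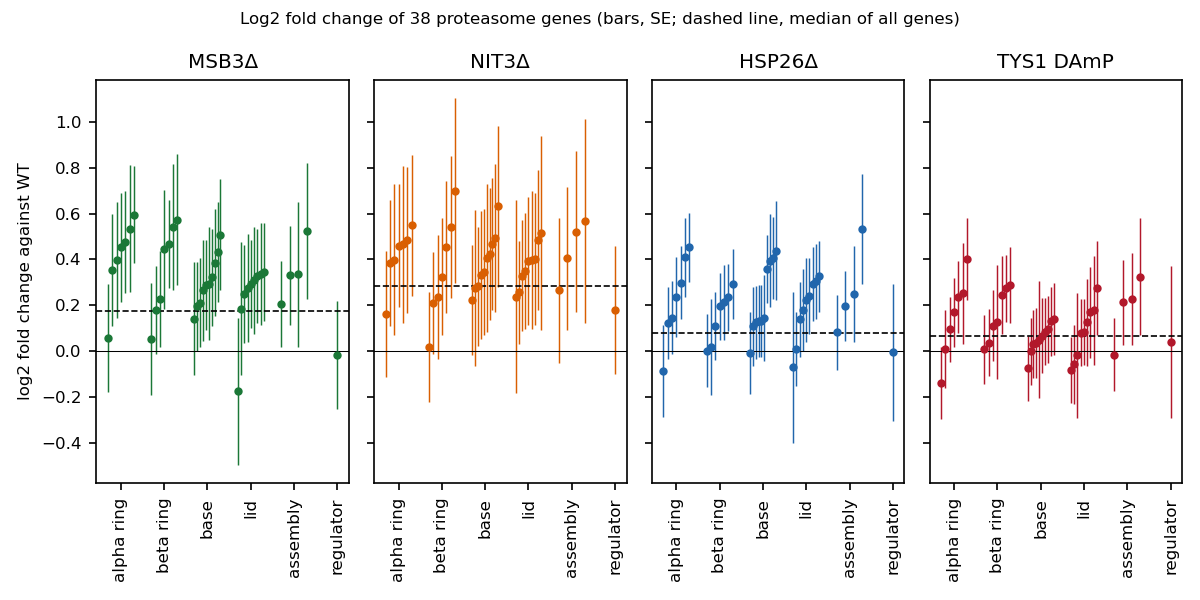
Log2 fold change against WT (y axis) of the 38 genes in each mutant, by group (x axis), with bars of 1 SE and a dashed line at the median of all genes tested. Most points lie above 0, PRE8 in MSB3Δ is the point at 0.60 in the alpha ring, and RPN4 lies between -0.02 and 0.18.

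The base is the ring of 6 ATPases, RPT1 to RPT6, that unfolds substrates, with the scaffolds RPN1 and RPN2 and the ubiquitin receptors RPN10 and RPN13. RPT5 was measured at 131 and 133 FPKM in WT, 247, 157 and 171 in MSB3Δ, 185, 146 and 198 in HSP26Δ, 161, 324 and 164 in NIT3Δ, and 149, 153 and 133 in TYS1 DAmP. It had the highest log2 fold change of the base in MSB3Δ, 0.51 ± 0.24 (SE), and in NIT3Δ, 0.63 ± 0.35, and 11 of its 12 mutant libraries were above both WT libraries. RPN2, highest of the base in HSP26Δ at 0.44 ± 0.22 and in TYS1 DAmP at 0.14 ± 0.15, was measured at 98 and 103 FPKM in WT, 131, 97.7 and 119 in MSB3Δ, 164, 104 and 148 in HSP26Δ, 127, 194 and 109 in NIT3Δ, and 122, 105 and 106 in TYS1 DAmP. In HSP26Δ all 3 libraries were above WT, replicate 2 by little.

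At the lower end of the base stood RPN13, RPT6 and RPT2. RPN13 was measured at 405 and 386 FPKM in WT, 575, 392 and 369 in MSB3Δ, 333, 404 and 449.8 in HSP26Δ, 368, 721 and 411 in NIT3Δ, and 571, 346 and 347 in TYS1 DAmP. Its WT libraries lay within the range of each mutant. The log2 fold change of RPN13 was 0.14 ± 0.25 (SE) in MSB3Δ and -0.01 ± 0.18 in HSP26Δ. RPT6 was lowest of the base in NIT3Δ, at 0.22 ± 0.24, with 274 and 263 FPKM in WT, 373, 299.8 and 317 in MSB3Δ, 319.5, 267 and 299 in HSP26Δ, 286, 379 and 284 in NIT3Δ, and 294, 272 and 259.6 in TYS1 DAmP. RPT2 was lowest in TYS1 DAmP, at -0.07 ± 0.14, with 247 and 242 FPKM in WT, 361, 253 and 278 in MSB3Δ, 269.8, 239 and 295 in HSP26Δ, 282, 411 and 258 in NIT3Δ, and 234, 237 and 226 in TYS1 DAmP. All 3 TYS1 DAmP libraries of RPT2 lay below both WT libraries, but the distance was small. RPT1 had all 12 mutant libraries above WT, from 219 FPKM in TYS1 DAmP replicate 3 to 424 in NIT3Δ replicate 2, beside 217 and 216 in WT. The other base genes, RPT3, RPT4, RPN1 and RPN10, had between 7 and 10 mutant libraries above both WT libraries and at most 2 below.

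In the lid, RPN11 is the enzyme that cuts off ubiquitin chains, and RPN8 is its partner. RPN11 was measured at 271 and 286 FPKM in WT, 416, 299 and 354 in MSB3Δ, 335, 333 and 382 in HSP26Δ, 319.6, 503 and 310.0 in NIT3Δ, and 420.1, 293 and 253 in TYS1 DAmP. It had the highest log2 fold change of the lid in MSB3Δ, 0.34 ± 0.21 (SE), and in HSP26Δ, 0.33 ± 0.15, and 11 of 12 mutant libraries lay above WT. RPN8 was measured at 324 and 322 FPKM in WT, 531, 321 and 291 in MSB3Δ, 289, 335 and 356 in HSP26Δ, 309, 809 and 394 in NIT3Δ, and 307, 319 and 290.1 in TYS1 DAmP. It was the highest of the lid in NIT3Δ, at 0.52 ± 0.42, through replicate 2, and the lowest in TYS1 DAmP, at -0.08 ± 0.14, where all 3 libraries were below WT.

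RPN12, among the last lid subunits to join in assembly, and SEM1 each stood at an end of the lid, but in different mutants. RPN12 was measured at 234 and 225 FPKM in WT, 293, 249.6 and 305 in MSB3Δ, 277, 239 and 304 in HSP26Δ, 268, 353 and 255 in NIT3Δ, and 351, 243 and 252 in TYS1 DAmP. No mutant library of RPN12 overlapped WT, and its log2 fold change in TYS1 DAmP, the highest of the lid there, was 0.27 ± 0.20 (SE). SEM1 was measured at 1609.6 and 1432 FPKM in WT, 2039, 1055 and 1131 in MSB3Δ, 965, 1420.0 and 2209 in HSP26Δ, 1281, 2852 and 1572 in NIT3Δ, and 2127, 1133 and 1399 in TYS1 DAmP. It had the lowest log2 fold change of the lid in MSB3Δ, NIT3Δ and HSP26Δ, at -0.17 ± 0.32, 0.24 ± 0.42 and -0.07 ± 0.33, and 7 of 12 mutant libraries lay below both WT libraries. Over the 14 libraries SEM1 and PRE2 varied most of the subunit genes, each by 2.96-fold from lowest to highest, and the SEM1 coding sequence of 270 bases is the shortest of the 38. RPN3 had all 12 mutant libraries above WT, and RPN5, RPN6, RPN7 and RPN9 had between 8 and 11.

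The assembly and accessory genes were followed one by one. UMP1, a chaperone of core maturation that the finished proteasome digests, was measured at 638 and 579 FPKM in WT, 1134, 554 and 717 in MSB3Δ, 596, 701 and 903 in HSP26Δ, 694, 1112 and 675 in NIT3Δ, and 1054, 689 and 609 in TYS1 DAmP. It was above both WT libraries in 9 of 12 mutant libraries, and its log2 fold change was highest of these genes in TYS1 DAmP, at 0.33 ± 0.25 (SE). RPN14, a chaperone of base assembly, was measured at 44.7 and 35.9 FPKM in WT, 83.4, 55.7 and 42 in MSB3Δ, 49.8, 44.2 and 44.4 in HSP26Δ, 45.4, 91.7 and 46.5 in NIT3Δ, and 50.2, 50.1 and 40.1 in TYS1 DAmP. It was highest of these genes in MSB3Δ, at 0.52 ± 0.30, but there replicate 3 lay between the WT libraries.

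ECM29, a large protein that holds core and regulatory particle together, was measured at 7.76 and 8.08 FPKM in WT, 11, 8.43 and 11.4 in MSB3Δ, 14.8, 8.47 and 13.4 in HSP26Δ, 10.5, 21.3 and 7.97 in NIT3Δ, and 11.5, 8.05 and 9.09 in TYS1 DAmP. With 0.57 ± 0.45 (SE) in NIT3Δ and 0.53 ± 0.24 in HSP26Δ it was highest of these genes in both, and in HSP26Δ all 3 libraries were above WT, although replicate 2 by little. BLM10, an activator that caps the core in place of the regulatory particle, was measured at 18.1 and 16.3 FPKM in WT, 23.9, 18.1 and 18.4 in MSB3Δ, 21.6, 16.5 and 17.1 in HSP26Δ, 19.8, 28.9 and 15.8 in NIT3Δ, and 15.4, 17.9 and 17.9 in TYS1 DAmP. It had the lowest log2 fold change of these genes in every mutant, 0.21 ± 0.19, 0.26 ± 0.32, 0.08 ± 0.16 and -0.01 ± 0.16 in MSB3Δ, NIT3Δ, HSP26Δ and TYS1 DAmP. At these levels a difference of a few FPKM in ECM29 or BLM10 is a large part of the value.

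The genes whose libraries did not overlap with WT were then counted. In MSB3Δ 25 of the 38 genes had all 3 libraries above both WT libraries, where 26.1% of all genes did, and none had all 3 below, where 8.08% did. In NIT3Δ the count above was 27 beside 38.6% of all genes, and the count below 0 beside 9.57%. In HSP26Δ it was 16 beside 27.6% above and 0 beside 13.2% below. In TYS1 DAmP 11 genes were above, beside 20.4%, and RPT2 and RPN8 were below, beside 12.4%. PRE8, PRE6, PRE3, PUP1, PRE4, RPT1, RPN3 and RPN12 were above both WT libraries in all 12 mutant libraries, 8 of 38 genes or 21.1% beside 7.86% of all genes, and none was below in all 12, beside 2.78%. With median-ratio scaling the count above was 10 in MSB3Δ beside 15.1% of all genes, 8 in NIT3Δ beside 19.2%, 10 in HSP26Δ beside 17.8%, and 4 in TYS1 DAmP beside 17.3%. The scaled count below was 0 in MSB3Δ beside 17.9% and 0 in HSP26Δ beside 21.6%, while PRE1 was below WT in NIT3Δ beside 21.7%, and PRE9, RPT2, RPN7 and RPN8 were below in TYS1 DAmP beside 18.8%. PRE8, PRE6 and PRE3 then remained above WT in all 12 libraries, beside 4.16% of all genes, and none was below in all 12, beside 6.09%. These shares describe the libraries, and the same 2 WT libraries enter each of them.

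The subunit genes went up and down together from library to library. All 528 pairs of the 33 genes had a positive Pearson correlation of log2(FPKM + 1) over the 14 libraries, with a median of 0.78, and 0.81 after the values were centred within each group. The median over pairs of all genes tested was 0.29. Without MSB3Δ replicate 1 and NIT3Δ replicate 2 the median over the pairs of subunit genes was 0.43, with 442 of the 528 positive, and that of all genes was 0.10. PRE3, RPT1 and RPT5 followed the median of the other subunits most closely, with r = 0.96, 0.95 and 0.94, and PRE1 and SEM1 least, with 0.47 and 0.59. These libraries share their scaling, and much of the common movement lay in MSB3Δ replicate 1 and NIT3Δ replicate 2. Without both, r with the other subunits was 0.84 for PRE3, 0.79 for RPT1 and 0.73 for RPT5, but 0.22 for PRE1, 0.05 for SEM1 and -0.00299 for RPN8. The 27 subunit genes with the full Rpn4 element had a median r of 0.90 with the other subunits, and the 6 without it 0.78. Without both libraries these values were 0.59 and 0.13. Most of the other subunits carry the element, so that the gap is partly built into the reference and no conclusion on the element is drawn. Of the 6 genes, only RPN13 also lacked the 7-letter core. With RPN4 itself the median r was 0.18 for genes with the element and 0.35 for those without it. Their median log2 fold changes were 0.32 and 0.31 in MSB3Δ, 0.23 and 0.06 in HSP26Δ, 0.40 and 0.30 in NIT3Δ, and 0.11 and 0.02 in TYS1 DAmP, with ranges that overlapped in each mutant. Without its library that stood apart, MSB3Δ had medians of 0.19 and 0.12 and NIT3Δ 0.18 and 0.11.

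**Figure D4:**
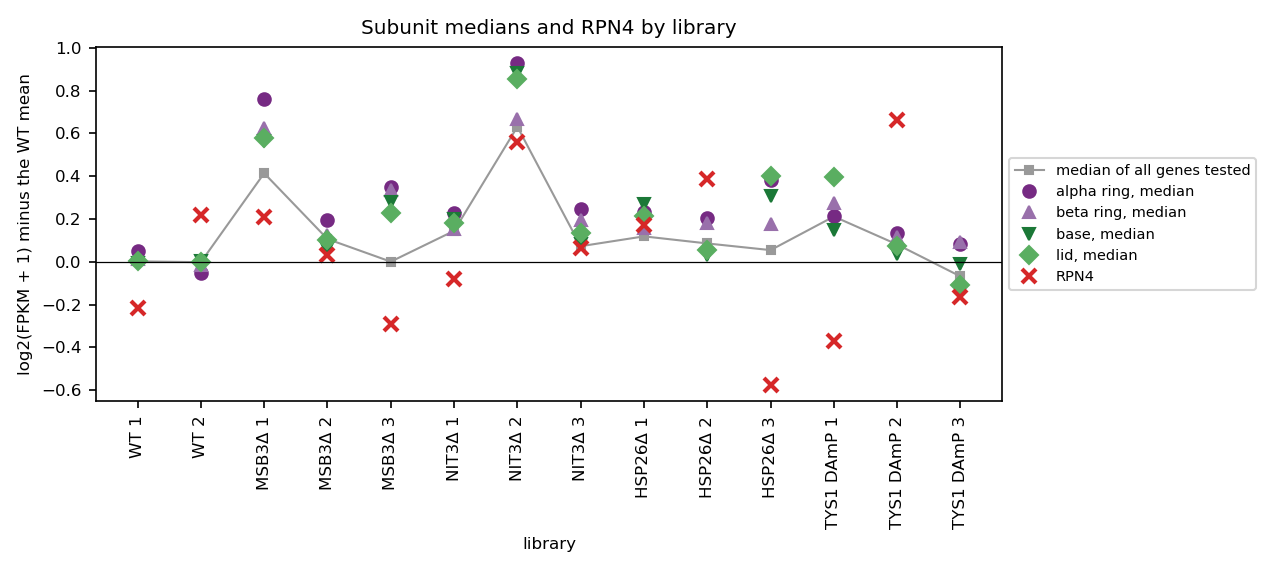
Median of the alpha ring, beta ring, base and lid genes, the median of all genes tested and the value of RPN4 in each library (x axis), as log2(FPKM + 1) minus the WT mean (y axis). The group medians lie close together and peak in MSB3Δ replicate 1 and NIT3Δ replicate 2, while RPN4 is lowest in HSP26Δ replicate 3 at -0.58 and highest in TYS1 DAmP replicate 2 at 0.66.

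Whether RPN4 moved with the subunit genes was tested library by library. Each of 5726 genes was correlated with RPN4 over the 14 libraries and tested with a permutation test of 100000 resamples, 2-sided, with adjustment over all genes. None of the 37 other genes reached a permutation p under 0.05, where 12.9% of all genes did, and no gene at all had an adjusted p under 0.05. Pearson's r ranged from -0.37 for PRE1 (permutation p = 0.201, adjusted p = 0.499) to 0.48 for PRE5 (permutation p = 0.0818, adjusted p = 0.403). Their Spearman's rho was -0.30 for PRE1 (permutation p = 0.305) and 0.43 for PRE5 (permutation p = 0.124). The median r of the 37 genes was 0.19, and that of all genes 0.26.

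The value depended on the libraries. HSP26Δ replicate 3 and TYS1 DAmP replicate 2 were farthest from the median of RPN4, with its lowest and its highest level, and without them the median r of the 37 genes was 0.46 and that of all genes 0.37. In HSP26Δ replicate 3 the median of the subunit genes was 0.34 above WT on the log2 scale while RPN4 was at -0.58, and in TYS1 DAmP replicate 2 the subunit median was 0.08 and RPN4 was at 0.66. Without MSB3Δ replicate 1 and NIT3Δ replicate 2 the median r was -0.37 beside 0.02 for all genes, with median-ratio scaling it was -0.31 beside 0.01, and after centring within groups it was 0.17 beside 0.26. The number of genes among the 37 with an adjusted p under 0.05 was 0 under each of these alternatives, and over all genes it was 88 after centring and 0 in the others. Centred values were also permuted over all 14 libraries and not within groups. As centring ties the values of a group to each other, the p values after centring can be too small. A permutation p under 0.05 was reached by 6 of the 37 without the 2 farthest libraries, all with positive r, beside 21.6% of all genes, and by PRE5 and RPN10 after centring, beside 20.7%. With scaling 6 genes reached it, all with negative r, beside 6.27% of all genes, and without MSB3Δ replicate 1 and NIT3Δ replicate 2 PRE1, PRE6, RPN9, RPN12 and SEM1 did, also with negative r, beside 5.8%. RPN4 RNA was measured here and not the Rpn4 protein, whose amount is known to depend on its degradation. The genes whose levels followed RPN4 most closely by r over the 14 libraries were MHP1, YHK8, HSP42, OPI10 and YJL144W, with r between 0.82 and 0.85, and none of them encodes a proteasome subunit. These 5 were picked as the highest values of r after the values were seen.

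**Figure D5:**
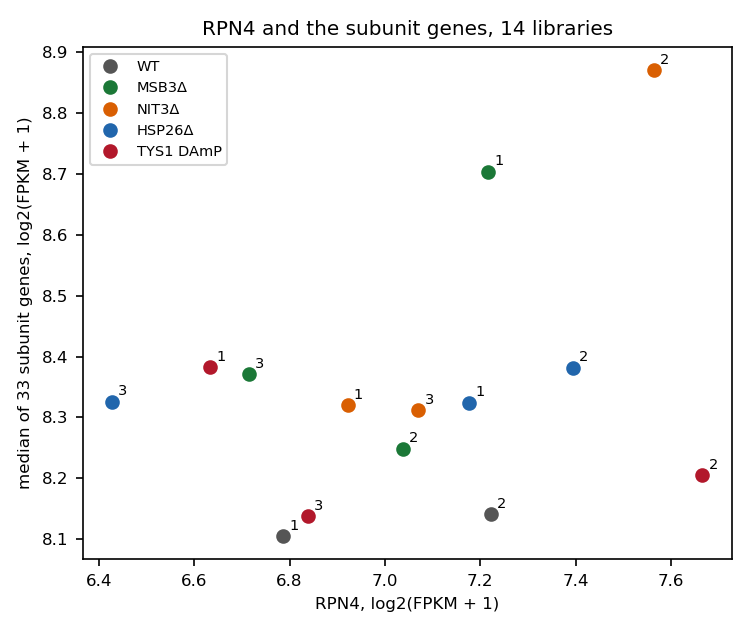
RPN4 (x axis) against the median of the 33 subunit genes (y axis), both as log2(FPKM + 1), in the 14 libraries, coloured by group and numbered by replicate. NIT3Δ replicate 2 and MSB3Δ replicate 1 lie at the top, TYS1 DAmP replicate 2 with the highest RPN4 (202 FPKM) lies low, and HSP26Δ replicate 3 with the lowest RPN4 (85.1 FPKM) lies in the middle.

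The mutants were also set against each other in 6 contrasts of the fit over all 5 groups. No gene of the 38 differed between any 2 mutants at an adjusted p under 0.05 with limma, and 0 had an unadjusted p under 0.05 in 5 of the 6 contrasts. Of all genes, 1.13% had one between MSB3Δ and NIT3Δ, 6.37% between MSB3Δ and HSP26Δ, 3.44% between MSB3Δ and TYS1 DAmP, 11.1% between NIT3Δ and HSP26Δ, and 2.3% between HSP26Δ and TYS1 DAmP. Between NIT3Δ and TYS1 DAmP, PRE2 and PRE5 had an unadjusted p under 0.05 beside 7.54% of all genes. PRE2 was 0.69 ± 0.30 (SE) higher on the log2 scale in NIT3Δ, with an adjusted p of 0.546, and PRE5 0.54 ± 0.25 higher, with the same adjusted p. Without NIT3Δ replicate 2 these differences were 0.31 ± 0.23 and 0.30 ± 0.23, with an adjusted p of 1.00 in limma for both.

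Around the proteasome, 4 further lists of genes were read from the same fits. Of 13 other assembly chaperones and associated factors, TMA17 was higher in each of the 4 mutants and no other gene was called. TMA17, a chaperone of base assembly known to be made under stress, was measured at 197 and 243 FPKM in WT, 647, 348 and 366 in MSB3Δ, 374, 260.1 and 407 in HSP26Δ, 421, 1218 and 460.0 in NIT3Δ, and 480.4, 305 and 297 in TYS1 DAmP. All 12 mutant libraries were above WT, and the log2 fold change was 0.99 ± 0.31 (SE) in MSB3Δ, 1.495 ± 0.49 in NIT3Δ, 0.69 ± 0.25 in TYS1 DAmP and 0.64 ± 0.23 in HSP26Δ. The adjusted p of TMA17 with limma lay between 0.283 and 0.652. In MSB3Δ and NIT3Δ, TMA17 was not called without WT replicate 1, at 0.84 and 1.34, and was called without any other library and with median-ratio scaling. It was at 0.70 without MSB3Δ replicate 1 and at 1.01 without NIT3Δ replicate 2. In HSP26Δ it was called only without WT replicate 2 or HSP26Δ replicate 2, at 0.79 and 0.83. In TYS1 DAmP it was not called without WT replicate 1 (0.53), WT replicate 2 (0.84) or TYS1 DAmP replicate 1 (0.46). None of the 13 promoters held the full Rpn4 element.

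Of 19 genes of ubiquitin and its conjugation, 0 were higher in MSB3Δ beside 3.93% of all genes and 1 in NIT3Δ beside 4.31%. In TYS1 DAmP 0 were higher beside 3.34%, and in HSP26Δ 2 beside 5.67%. In each mutant but NIT3Δ 1 was lower, beside 0.559% of all genes in MSB3Δ, 2.41% in HSP26Δ and 1.64% in TYS1 DAmP. UBI4, which encodes a chain of ubiquitin units and is known as a stress gene, was measured at 172 and 229.7 FPKM in WT, 460.4, 203 and 293 in MSB3Δ, 330.2, 325 and 460.0 in HSP26Δ, 321, 711 and 387 in NIT3Δ, and 495, 239 and 272 in TYS1 DAmP. It was higher in NIT3Δ at 1.16 ± 0.38 (SE) and in HSP26Δ at 0.88 ± 0.22, and the full Rpn4 element stood before it and before UBA1, the ubiquitin-activating enzyme. RPS31, which encodes ubiquitin joined to a ribosomal protein, was the gene lower in MSB3Δ, HSP26Δ and TYS1 DAmP. Its log2 fold changes there were -0.77 ± 0.26, -0.67 ± 0.23 and -0.63 ± 0.15, in that order. In NIT3Δ RPS31 was at -0.99 ± 0.67 and was not called, and all 12 mutant libraries were below WT. HUL4, a ubiquitin ligase, was higher in HSP26Δ at 0.82 ± 0.24. Of 10 genes of substrate delivery and Cdc48, DDI1 and OTU1 were higher in MSB3Δ, at 0.62 ± 0.22 and 0.73 ± 0.28. This was beside 3.93% of all genes called higher there, and none of the 10 was called elsewhere. Of 6 factors that act upstream of RPN4, only MSN4, a stress activator, was called. It was higher in NIT3Δ at 1.13 ± 0.33, beside 4.31% of all genes called higher there. No gene of the 4 lists had an adjusted p under 0.05 with limma. Median-ratio scaling and each left-out library were tried for these calls too. RPS31 in TYS1 DAmP was called in all 6 of them. Without WT replicate 1, UBI4 was not called in NIT3Δ (0.95) or HSP26Δ (0.67) nor MSN4 in NIT3Δ (1.06), and without WT replicate 2 HUL4 was not called (0.75), while the other 5 alternatives kept each of these calls. RPS31 was not called in MSB3Δ with median-ratio scaling (-0.96) or without WT replicate 1 (-0.78) or 2 (-0.77), nor in HSP26Δ without WT replicate 1 (-0.68), WT replicate 2 (-0.67) or HSP26Δ replicate 3 (-0.65). DDI1 was called only without MSB3Δ replicate 3 (0.74), and OTU1 only without MSB3Δ replicate 2 (0.92) or 3 (0.81). Without MSB3Δ replicate 1 they were at 0.43 and 0.47.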

How the data were processed

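RNA-seq of the 14 libraries was read from 1 table of FPKM values that the authors deposited, rounded to 2 decimals, with no read counts. The submitters' processing notes name HISAT2 2.1.0, Bowtie2, RSEM 1.3.1, DESeq2 1.4.5 and build R64, without their order. FPKM is relative to each library's total, so a large gene class that shrinks raises all others. Depth was searched between 16000000 and 26000000 fragments per library for the value at which 99 low values of 31 short genes came nearest to whole reads. At the depths chosen, 99.0% lay within 0.15 of a whole read. Depth and a length subtracted from each gene were both chosen for nearness on these same values, so this share does not test the depths. With few values per library these depths are approximate.

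Values were compared as log2(FPKM + 1) with limma 3.58.1 in R 4.3.3 (moderated variances, variance trend, robust estimation, 2-sided), after a filter at a mean of 1 FPKM over the libraries that left 5727 genes. All fold changes refer to this scale, on which low genes appear to change less than they do. Each mutant was fitted with WT alone, and the mean of the 4 mutants and the 6 contrasts between mutants in 1 fit over 5 groups. Benjamini-Hochberg adjustment ran over all genes tested. SE is limma's moderated standard error. On simulated data for MSB3Δ against WT with 5727 genes, 200 of them raised, 81.5% of genes raised by 1 and 100% of those raised by 3 on the log2 scale were called at the thresholds, with 4.78% and 4.22% of unchanged genes. Of the genes raised by 1, 0% reached an adjusted p under 0.05, and of those raised by 3, 96.5% did. The simulated noise was drawn for each gene on its own. It held no shift of a whole library like those of MSB3Δ replicate 1 and NIT3Δ replicate 2, so these rates need not hold for the data. Correlations with RPN4 were tested by permuting its values over libraries.

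The genes and lists were chosen with earlier results of these data known. Values by library were printed for RPN4, the assembly and accessory genes, each gene called in any mutant, and the gene with the highest and the lowest log2 fold change of each group in each mutant. In the other lists, the called genes were named. Promoters were read from the RefSeq sequence of R64, where all 38 symbols matched and none of the 38 coding regions overlapped another. RPN4 held no match, so no sequence of it is shown. Same-numbered libraries of HSP26Δ and TYS1 DAmP deviated together in all 3 pairs (r from 0.13 to 0.34 over genes). Those of MSB3Δ and TYS1 DAmP did so too (r from 0.09 to 0.29). Both contrasts were therefore also read with the replicate number as a block. The series text describes 3 WT replicates, and 2 WT libraries were analysed here. Whether reads were counted by strand is not given in the sources used here. Python 3.11.15 with pandas 2.3.3, NumPy 2.4.6, SciPy 1.17.1 and matplotlib 3.10.9 was used for the rest.

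Each comparison was repeated with median-ratio scaling, with a pseudocount of 0.1, without the filter or with it at 10 FPKM, in 1 fit over 5 groups, with a block for the replicate number, and with each library left out. A linear model of unlogged FPKM was run for each mutant against WT only. For the correlations they were Spearman's rho, centring within groups, median-ratio scaling, a pseudocount of 0.1, a minimum of 10 FPKM, and leaving out the 2 libraries farthest from the median of RPN4. Leaving out MSB3Δ replicate 1 and NIT3Δ replicate 2, the scaled counts of genes without overlap, the alternatives for the listed genes and for the contrasts between mutants, and the 7-letter core were added after the data were seen.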

Additional observations from a re-analysis of the deposited data

How the results depend on the processing

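Over 201 alternative values of the results, 167 kept their direction, their call or roughly their size. A count was kept within a fixed ratio of the main value, or at 0 where the main value was 0. Many of the 167 were such counts of 0, among them all 20 for the mean of the 4 mutants and all 20 between mutants. The number of the 38 genes called in MSB3Δ was 1, and it was 0 with median-ratio scaling, 0 with the model of unlogged FPKM, 0 without MSB3Δ replicate 1 and NIT3Δ replicate 2 in 1 fit over 5 groups, and between 0 and 4 when each library was left out. With a library left out it was between 0 and 1 in NIT3Δ and between 0 and 2 in HSP26Δ, while TYS1 DAmP and the mean of the 4 mutants had 0 throughout. The sign of the RPN4 log2 fold change was not stable. With median-ratio scaling it was -0.11 in NIT3Δ and -0.038 in TYS1 DAmP, and without MSB3Δ replicate 1 and NIT3Δ replicate 2 it was -0.0085 in NIT3Δ. With each library left out MSB3Δ gave between -0.23 and 0.20, NIT3Δ between -0.037 and 0.40, HSP26Δ between -0.22 and 0.28 and TYS1 DAmP between -0.27 and 0.26. The median log2 fold change of the 33 subunit genes stayed above 0 under every alternative run. In HSP26Δ it was 0.10 with median-ratio scaling and between 0.17 and 0.29 with each library left out. The median correlation of the 37 genes with RPN4 was -0.31 with median-ratio scaling and -0.37 without MSB3Δ replicate 1 and NIT3Δ replicate 2.

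With the replicate number as a block (replicate block), 5 of the 38 genes (PRE8, PRE5, PRE3, PRE2 and RPN14) were called in MSB3Δ, where 16.7% of all genes were called higher, RPN14 with an adjusted p of 0.0249 in limma, and the RPN4 log2 fold change was 0.12 in MSB3Δ and 0.28 in HSP26Δ. Same-numbered libraries of WT and a mutant deviated with r between -0.28 and 0.15. The 2 WT libraries deviate from their mean by equal and opposite amounts, so these values cannot settle whether the numbers pair them with mutant libraries. Over all groups, deviations of same-numbered libraries correlated with a median of 0.05 and a lowest value of -0.77. HSP26Δ and TYS1 DAmP deviated together in all 3 same-numbered pairs, and so did MSB3Δ and TYS1 DAmP. Between HSP26Δ and TYS1 DAmP, 0 of the 38 genes had an unadjusted p under 0.05 in limma with or without the block. This held in the fit over 5 groups and in a fit of their 6 libraries alone. Between MSB3Δ and TYS1 DAmP the number in the fit over 5 groups was also 0, beside 3.72% of all genes with the block and 3.44% without it. As WT has no replicate 3, the block also takes replicate 3 of each mutant out of the comparison. The replicate block changed no other call among the 38 genes. Between mutants, 0 of the 38 genes had an adjusted p under 0.05 in limma under any alternative.

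The 2 WT libraries enter every comparison, and 3 libraries against 2 limit all of them. Depth is known only approximately, so no counting interval was given. The values of MSB3Δ replicate 1 and NIT3Δ replicate 2 move with the ribosomal protein share, and the part of that share in the subunit levels was not tested beyond the scaling and the omission above. The cause of the other differences between alternatives was not tested.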
